A study of Mus musculus with 8 samples.

Results

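The genes described here encode CTCF, the cohesin complex with its loader and release factor, and 1 subunit of Mediator, the proteins through which enhancers are brought to promoters. Listed by symbol were Ctcf, Smc1a, Smc3, Rad21, Stag1, Stag2, Nipbl, Wapl, Med1 and Med12. Each Ensembl identifier was matched to its symbol, and 9 of the 10 genes had a row among the 17731 identifiers analysed. Med12 was not analysed here. All 9 had a mean above 1 FPKM (fragments per transcript length and library size), so all 9 were among the 11274 genes tested.

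The cells were E14TG2a mouse embryonic stem cells of the 129/Ola strain. All groups were grown without feeder cells on gelatin in serum with LIF, the GSK3 inhibitor CHIR99021 and the MEK inhibitor PD0325901. Unedited cells (WT) were compared with 3 lines, E1-KO, E2-KO and E3-KO, from each of which an enhancer had been deleted with CRISPR/Cas9, and each group had 2 samples that the labels call biological duplicates. The position of each enhancer, and whether each line is 1 clone, are not given in the sources used here. The series title and design name the association of enhancers with the promoter of Sox2, a transcription factor of pluripotent cells, as the subject. The comparison made here asks whether the RNA of the looping machinery differed between the lines in which Sox2 differed.

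Cohesin is a ring of Smc1a, Smc3 and Rad21 to which either Stag1 or Stag2 binds. Nipbl, with its partner Mau2, loads the ring onto chromatin, where it extrudes a loop until it meets CTCF bound to its DNA motif, and Wapl opens the ring and releases it. Mediator is a large complex that contacts transcription factors at enhancers and RNA polymerase II at promoters. In embryonic stem cells CTCF and cohesin set domain boundaries, and Mediator with cohesin and Nipbl occupies enhancers and promoters of active genes.

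RefSeq promoters (build GRCm38.p6) were matched for 6 of the 9 genes, Ctcf, Smc1a, Smc3, Stag1, Wapl and Med1. Those of Ctcf (chr8:105636288-105636537, plus strand), Smc3 (chr19:53600146-53600395, plus strand) and Stag1 (chr9:100643198-100643447, plus strand) are shown because these 3 genes rose together in E1-KO. Each is the 250 bases before the start that RefSeq gives, 5′ to 3′, and capitals mark the GC box GGGCGG or its reverse complement CCGCCC.
Ctcf: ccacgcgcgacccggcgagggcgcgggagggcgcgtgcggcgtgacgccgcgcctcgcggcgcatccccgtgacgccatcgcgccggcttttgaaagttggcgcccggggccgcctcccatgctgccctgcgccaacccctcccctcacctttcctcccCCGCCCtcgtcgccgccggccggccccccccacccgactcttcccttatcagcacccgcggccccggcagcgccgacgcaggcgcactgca
Smc3: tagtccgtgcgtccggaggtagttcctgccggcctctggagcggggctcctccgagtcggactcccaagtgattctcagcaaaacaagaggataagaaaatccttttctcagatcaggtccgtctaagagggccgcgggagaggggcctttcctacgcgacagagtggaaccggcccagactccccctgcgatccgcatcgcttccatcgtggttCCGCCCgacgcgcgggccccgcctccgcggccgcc
Stag1: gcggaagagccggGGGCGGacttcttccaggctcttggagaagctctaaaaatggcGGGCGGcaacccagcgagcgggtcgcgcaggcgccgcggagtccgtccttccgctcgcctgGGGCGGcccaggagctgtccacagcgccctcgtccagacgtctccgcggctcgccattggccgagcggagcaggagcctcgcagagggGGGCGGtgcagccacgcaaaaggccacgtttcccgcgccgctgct
A GC box stood in 6 of 6 matched promoters, against 32.7% of 32851 RefSeq promoters of the same length, and Stag1 held 4. The GC content of these 3 windows was 77.6% for Ctcf, 64.4% for Smc3 and 71.2% for Stag1, where the median of all promoters was 52.4%. CATTGT and CTTTGT, core letters that SOX proteins can bind, were searched on both strands and stood in 0 of 6, against 10.7% and 16.5% of all promoters. These matches describe letters only.

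Depth is not recorded in FPKM values. The values summed to between 454970 and 532010 per sample, and 11080 to 11267 genes reached 1 FPKM. The median absolute log2 difference between the 2 samples of a group was 0.105 for WT and 0.108, 0.169 and 0.176 for the knockouts E1-KO to E3-KO. All 10 embryonic stem cell markers examined reached 1 FPKM in each group, with a summed level of 2170 to 2746 FPKM. Of these 10, E1-KO had 1 called higher and 4 lower, E2-KO 4 higher and 2 lower, and E3-KO 1 higher and 4 lower. In these lines 38.0%, 36.1% and 44.7% of all tested genes were called. Those higher were Lin28a in E1-KO, Pou5f1, Sall4, Lin28a and Zfp42 in E2-KO, and Sall4 in E3-KO. The call of Lin28a in E1-KO and all of those in E2-KO were lost in some fits that left out 1 sample. Tfcp2l1, a factor of the naive state, fell in each (log2 fold changes -1.01, -0.82 and -0.59), as did Dppa5a (-0.70, -0.63 and -0.64, but adjusted p = 0.0656 in E2-KO without WT replicate 2). Vim made up most of the fibroblast list (58.1 to 115.7 FPKM over 8 genes), while Col3a1, Dcn and Lum stayed below 0.07 FPKM. Thy1 rose by 1.03 in E1-KO and 1.06 in E3-KO, from 0.8402 and 0.6954 FPKM in WT to at most 2.847, and Vim rose by 0.62 in E3-KO. The summed level was 0.737 to 4.78 FPKM for 6 endoderm genes, highest in E3-KO, 8.24 to 18.1 FPKM for 4 neural genes, and 37.4 to 74.7 FPKM for 7 trophectoderm genes, of which Cdx2 and Elf5 stayed below 0.73 FPKM. In E3-KO the trophectoderm genes Gata3 and Krt8 rose by 1.59 and 1.16, the neural genes Neurod1 and Nes by 1.45 and 0.87 and the endoderm gene Gata6 by 0.79 (not called without E3-KO replicate 1, 0.40, or without either WT sample). Pax6, a neural gene, rose by 1.24 in E1-KO, and Tfap2c, of the trophectoderm list, fell there by 1.01 and in E2-KO by 0.64, with Krt18 falling by 1.46 in E2-KO. Other tested trophectoderm genes did not rise in E3-KO, where mean FPKM was 27.85 for Tfap2c, 3.841 for Eomes and 9.731 for Krt18. In WT the means were 33.67, 4.331 and 9.824, and none of these differences was called. The median log2 fold change of the 5 tested genes of this list in E3-KO was -0.0552. In E1-KO Krt8 was called higher and Krt18 lower, calls lost in some fits that left out 1 sample. Other genes of the neural and fibroblast lists went down. Map2, a neural gene, had a mean of 1.679 FPKM in WT, 0.5484 in E2-KO (called lower) and 0.7236 in E3-KO (not called). Pdgfrb, of the fibroblast list, had a mean of 1.98 FPKM in WT, 1.324 in E2-KO and 1.214 in E3-KO, with neither fall called. The uncalled falls of both genes had an unadjusted p under 0.05 in the limma fit. These marker genes were chosen after their values were seen. The part of these markers in the results was not tested, and in bulk RNA fewer cells of a type and less RNA per cell cannot be told apart.

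Sox2 was at 130.5 and 136.3 FPKM in WT, at 58.03 and 60.27 in E1-KO, at 113.6 and 97.51 in E2-KO and at 97.74 and 90.96 in E3-KO. Every knockout sample lay below both WT samples, and E1-KO lay lowest. On the scale of log2(FPKM + 1), on which all fold changes here are given, Sox2 fell by 1.16 (SE 0.104, adjusted p = 0.000169) in E1-KO, by 0.34 (SE 0.104, adjusted p = 0.0314) in E2-KO and by 0.50 (SE 0.104, adjusted p = 0.0049) in E3-KO. The adjusted p is that of limma's moderated test with Benjamini-Hochberg adjustment over all genes tested, and a gene was called when it was under 0.05. The E2-KO call was lost under median-ratio scaling (adjusted p = 0.0642), with limma's trend left out (0.052) and with only the samples of E2-KO and WT (0.0567). It was also lost without E1-KO replicate 1 or 2 (log2 fold change -0.34 in both), without E2-KO replicate 2 (-0.23) and without WT replicate 1 or 2 (-0.37 and -0.31).

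**Figure D1:**
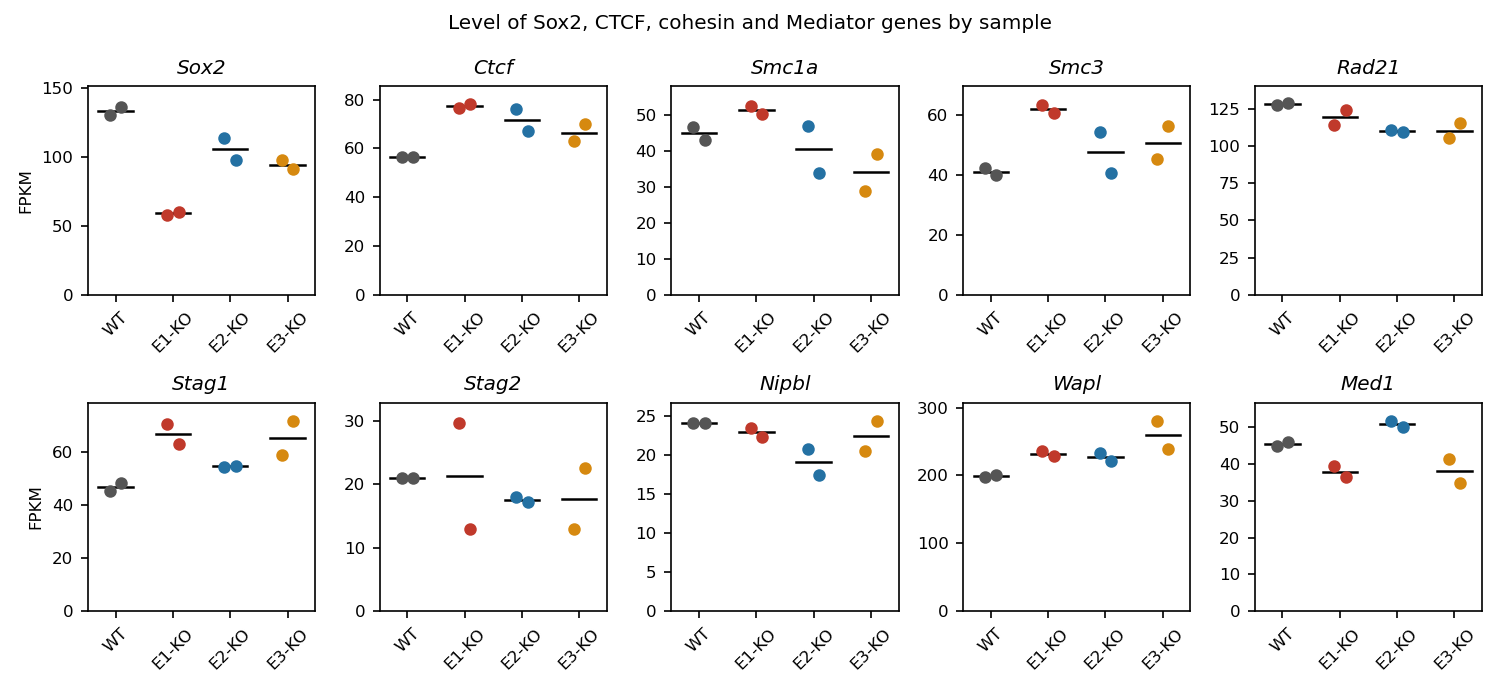
FPKM (vertical axes, from 0) of Sox2 and of the 9 genes in each of the 8 samples, by group. Points are samples and the line is the mean of 2. Sox2 and Rad21 lie lower in every knockout sample than in WT, while Ctcf, Stag1 and Wapl lie higher in every knockout sample. Over all tested genes 33.0%, 29.6% and 25.7% lay above both WT samples in E1-KO, E2-KO and E3-KO. Below both lay 44.0%, 42.3% and 48.4%. The share of all genes that did so in every knockout sample was not computed, and all 3 lines share the WT samples.

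Beside this fall of Sox2, the looping genes called against WT were called higher. Ctcf, Smc3 and Stag1 rose in E1-KO, Ctcf rose in E2-KO, and Stag1 and Wapl rose in E3-KO. That is 3, 1 and 2 of 9 genes, where 15.0%, 14.2% and 13.9% of all tested genes were called higher in the same comparisons. None was called lower, against 23.0%, 22.0% and 30.8% of all genes. At an unadjusted p under 0.05 the same limma fit had 1 gene lower in E1-KO (Med1), 2 in E2-KO (Rad21 and Nipbl) and 3 in E3-KO (Smc1a, Rad21 and Med1). In either direction 38.0%, 36.1% and 44.7% of all genes were called. Counts of 1 to 3 genes beside such shares are no result about the 9 genes. Under quantile normalization and under median-ratio scaling 4 of the 9 were called higher in E3-KO, where 20.2% and 20.9% of all genes then were, and Rad21 was called lower in E2-KO under the former. The sizes depended on the scaling too: under median-ratio scaling Sox2 was at -0.26 in E2-KO and -0.32 in E3-KO, where Ctcf was at 0.41 in E2-KO and Stag1 and Wapl at 0.63 and 0.55 in E3-KO. The median log2 fold change of the 9 genes was 0.19, 0.16 and -0.10 in E1-KO, E2-KO and E3-KO, beside -0.06, -0.08 and -0.15 over all genes tested. All 3 comparisons share the WT samples.

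No member was called in all 3 knockouts, where 6.56% of all genes were called higher and 13.0% lower in all 3. This did not hold for Ctcf, which was called higher in all 3 under quantile normalization, median-ratio scaling and the scaling without the 50 highest genes, as were 8.88%, 9.61% and 6.94% of all genes. Smc1a, Rad21, Stag2, Nipbl and Med1 were called in no knockout against WT, as were 38.3% of all genes. In simulated samples of this size with 200 genes changed, 0% of log2 changes of 0.5 and 79.5% of those of 1 were called. With so few genes changed the adjustment there is stricter than in the deposited data, where Ctcf was called at 0.33 in E2-KO. These rates are therefore not those of the deposited data. A gene that was not called is still not shown to be unchanged. Both samples of a group often lay outside the WT range even so. In E1-KO 5 of the 9 genes lay above both WT samples and 3 below, in E2-KO 4 above and 3 below, and in E3-KO 4 above and 3 below. Over all tested genes 33.0%, 29.6% and 25.7% lay above both WT samples in these lines, and 44.0%, 42.3% and 48.4% lay below.

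**Figure D2:**
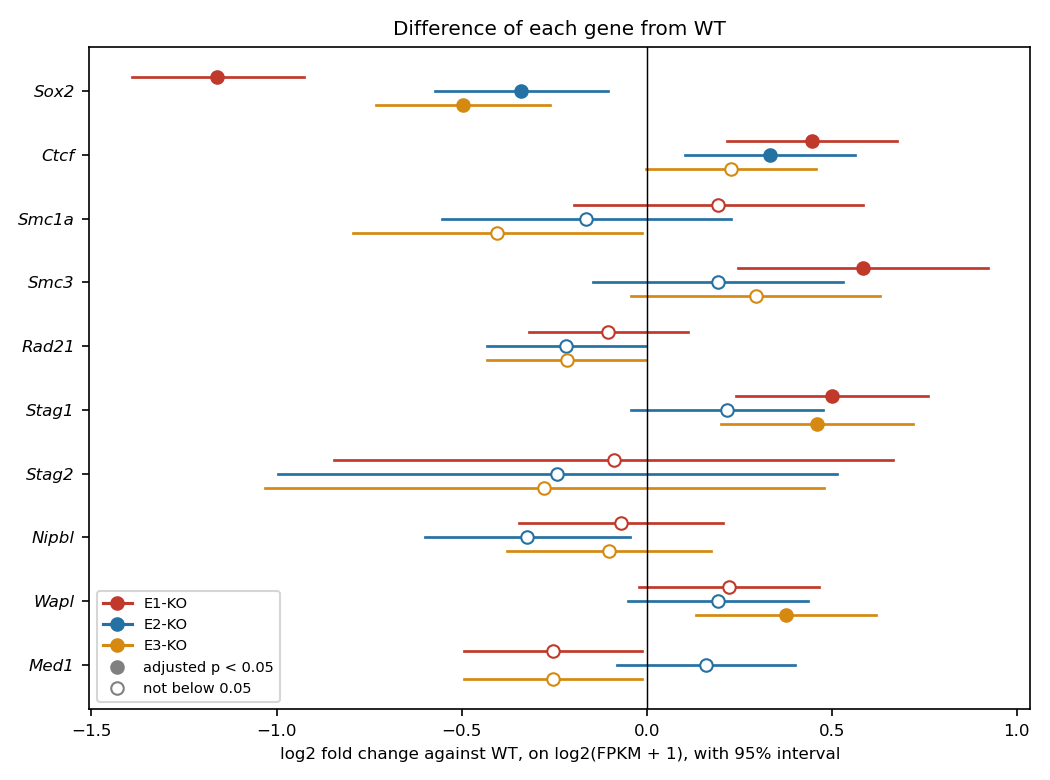
Log2 fold change against WT (horizontal axis, on log2(FPKM + 1)) of Sox2 and the 9 genes in each knockout, with the 95% interval of the limma fit. Filled points have an adjusted p under 0.05. Sox2 is filled and negative in all 3 lines, and the 6 filled points of the other genes are positive.

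CTCF is the DNA-binding protein that anchors loops and insulates domains. Ctcf (ENSMUSG00000005698, chromosome 8) was at 56.6 and 56.5 FPKM in WT, at 76.65 and 78.12 in E1-KO, at 76.29 and 66.94 in E2-KO and at 63.02 and 69.92 in E3-KO. All 6 knockout samples lay above WT, with E1-KO highest and no overlap of any knockout with WT. The log2 fold change was 0.45 (95% interval 0.217 to 0.675, adjusted p = 0.00898) in E1-KO, a 1.37-fold mean level, and 0.33 (0.104 to 0.562, adjusted p = 0.0311) in E2-KO, and it was 0.23 (-0.00143 to 0.457, adjusted p = 0.0963) in E3-KO. The 3 knockouts did not differ from each other at the threshold, with a largest difference of -0.22 (-0.447 to 0.0109) between E3-KO and E1-KO. Without E1-KO replicate 1 or 2, or WT replicate 1 or 2, the E1-KO value stayed between 0.43 and 0.46 and its adjusted p was 0.0559, 0.059, 0.0565 and 0.0634. The E2-KO call was lost without either E1-KO sample (0.0591 and 0.0589), E2-KO replicate 1 (log2 fold change 0.24, 0.129) or either WT sample (0.13 and 0.141), and the E3-KO value passed under quantile normalization (0.28, adjusted p = 0.0344) and median-ratio scaling (0.40, adjusted p = 0.014). In GENCODE M21 (GRCm38) Ctcf overlaps 3 genes of the other strand, including Agrp, and whether reads were counted by strand is not given in the sources used here.

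Smc1a and Smc3 are the ATPase arms that pair to form the cohesin ring, and their RNAs did not move in parallel. Smc3 (ENSMUSG00000024974, chromosome 19) was at 42.22 and 39.89 FPKM in WT, at 63.38 and 60.73 in E1-KO, at 54.36 and 40.67 in E2-KO and at 45.41 and 56.25 in E3-KO. E1-KO lay above every other sample, E3-KO lay above WT, and E2-KO overlapped WT. Smc3 rose in E1-KO by 0.58 (SE 0.149, adjusted p = 0.0145), a 1.51-fold mean level and the largest change against WT among the 9 genes. Its log2 fold change was 0.19 (95% interval -0.144 to 0.529, adjusted p = 0.34) in E2-KO and 0.29 (-0.0422 to 0.631, adjusted p = 0.137) in E3-KO. The E1-KO call was lost without E1-KO replicate 1 (0.55, adjusted p = 0.0865) or 2 (0.61, 0.0577) and without WT replicate 1 (0.62, 0.057) or 2 (0.54, 0.0916), while the E3-KO value passed under quantile normalization (0.40, adjusted p = 0.0464) and median-ratio scaling (0.46, adjusted p = 0.0372).

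Smc1a (ENSMUSG00000041133, chromosome X) was at 46.56 and 43.19 FPKM in WT, at 52.6 and 50.28 in E1-KO, at 46.9 and 34.0 in E2-KO and at 28.84 and 39.26 in E3-KO. E1-KO lay above WT and E3-KO below it, while the E2-KO samples lay on either side of both WT samples. None of these differences from WT was called, with log2 fold changes of 0.19 (95% interval -0.197 to 0.584), -0.16 (-0.554 to 0.228) and -0.40 (-0.794 to -0.0128). Smc1a was lower in E3-KO than in E1-KO by a log2 difference of -0.60 (SE 0.173, adjusted p = 0.0332), a comparison in which 16.4% of all genes were called lower. That call was lost under quantile normalization (-0.51, 0.0513) and median-ratio scaling (-0.50, 0.0758), with the replicate number as a block (0.0504), without E3-KO replicate 1 (-0.38, 0.173), without E1-KO replicate 1 (0.152) or 2 (0.11) and without WT replicate 1 (0.0557) or 2 (0.0556), while the E3-KO value against WT passed without E3-KO replicate 2 (-0.62, 0.0304) and without E2-KO replicate 1 (0.0445) or 2 (0.0444).

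A ratio of 2 genes within a sample does not depend on the scaling between samples. The ratio of Smc3 to Smc1a in FPKM was 0.907 and 0.923 in WT, 1.21 in both E1-KO samples, 1.16 and 1.2 in those of E2-KO, and 1.57 and 1.43 in those of E3-KO. All 6 knockout samples lay above WT and E3-KO lay highest, although the 2 samples of E2-KO and of E3-KO differed widely in each gene alone. Smc1a in replicate 1 was 1.38 times replicate 2 in E2-KO and 0.734 times in E3-KO, and Smc3 was 1.34 and 0.807 times, so the pair moved together between samples of a line. Nipbl (1.19 and 0.841 times) and Ctcf (1.14 and 0.901 times) moved the same way, as did the proliferation genes Mki67 (1.36 and 0.767 times) and Cenpf (1.47 and 0.796 times), whose part in the spread was not tested. Other proliferation genes did not: Cdk1 (189.5 and 136.4 FPKM), Bub1 (27.56 and 24.88), Pcna (150.7 and 141.4) and Ccnb1 (107.5 and 101.5) were higher in replicate 1 of E3-KO. The ratios and the proliferation genes named here were chosen after their values were seen. An exact permutation test of 2 samples against 2 cannot give a two-sided p below 0.333.

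**Figure D3:**
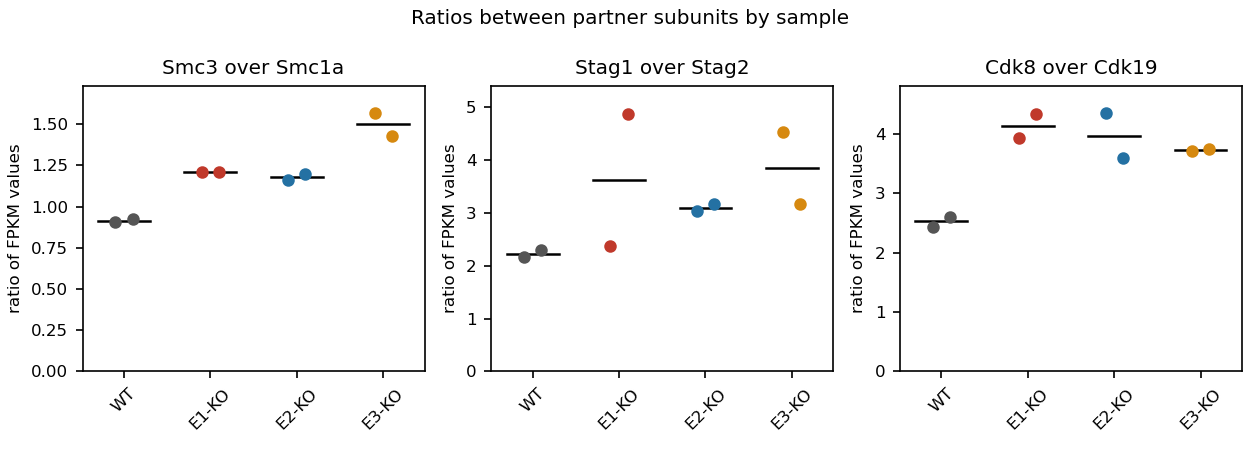
Ratio of FPKM values within each sample (vertical axes, from 0) for Smc3 over Smc1a, Stag1 over Stag2 and Cdk8 over Cdk19. Points are samples and the line is the mean of 2. The knockout samples lie above both WT samples in each panel, with a wide spread for Stag1 over Stag2 in E1-KO (2.38 and 4.87). The panels were picked from the ratios examined, and others differ. Rad21 over Smc3 lies below both WT samples in every knockout sample. Nipbl over Mau2 in E2-KO (1.71 and 1.33) overlaps WT (1.44 and 1.37).

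Rad21 is the kleisin that closes the ring and is cut by separase when sister chromatids part. Rad21 (ENSMUSG00000022314, chromosome 15) was at 127.4 and 128.7 FPKM in WT, at 114.1 and 124.2 in E1-KO, at 110.6 and 109.5 in E2-KO and at 105.2 and 115.2 in E3-KO. All 6 knockout samples lay below both WT samples, by small amounts. The log2 fold changes were -0.10 (95% interval -0.319 to 0.111), -0.22 (-0.432 to -0.00151) and -0.22 (-0.431 to -0.00117), with adjusted p of 0.415, 0.105 and 0.0932. The E2-KO value passed under quantile normalization (-0.33, adjusted p = 0.0265).

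Stag1 and Stag2 are the alternative subunits that bind Rad21, Stag1 being tied more to CTCF sites and telomeres. Stag1 (ENSMUSG00000037286, chromosome 9) was at 45.37 and 48.27 FPKM in WT, at 70.37 and 62.99 in E1-KO, at 54.3 and 54.71 in E2-KO and at 58.81 and 71.4 in E3-KO. All knockout samples lay above WT, and E1-KO and E3-KO overlapped each other. Stag1 rose by 0.50 (SE 0.115, adjusted p = 0.00939) in E1-KO, a 1.42-fold mean level, and by 0.46 (SE 0.115, adjusted p = 0.0107) in E3-KO, a 1.39-fold mean level. Its log2 fold change in E2-KO was 0.22 (95% interval -0.0434 to 0.475, adjusted p = 0.171), which passed after correction for GC content and length (0.34, adjusted p = 0.0306). The E1-KO call was lost without E1-KO replicate 1 (0.42, 0.0849) or WT replicate 1 (0.46, 0.069), and the E3-KO call without E3-KO replicate 2 (0.32, 0.0554) or WT replicate 1 (0.42, 0.0759).

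Stag2 (ENSMUSG00000025862, chromosome X) was at 20.98 FPKM in both WT samples, at 29.62 and 12.94 in E1-KO, at 17.93 and 17.27 in E2-KO and at 12.97 and 22.55 in E3-KO. The E1-KO and E3-KO samples lay on either side of WT, so that the 2 samples of E1-KO differed 2.29-fold, the widest gap within a group among the 9 genes. The log2 fold changes were -0.09, -0.24 and -0.28 with 95% intervals of -0.844 to 0.666, -0.996 to 0.514 and -1.03 to 0.478, which leave changes of either sign possible. Stag1 was above Stag2 in every sample, with a mean ratio of 2.23 in WT and of 3.62, 3.1 and 3.85 in the lines E1-KO to E3-KO.

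Nipbl, the loader, and Wapl, the release factor, act in opposite directions on the time cohesin stays on DNA. Wapl (ENSMUSG00000041408, chromosome 14) had the highest level of the 9 genes per transcript length, at 197.1 and 200.5 FPKM in WT, at 235.6 and 229.0 in E1-KO, at 233.2 and 221.8 in E2-KO and at 280.5 and 238.3 in E3-KO. Every knockout sample lay above WT, and E3-KO held the highest. Wapl rose in E3-KO by 0.38 (SE 0.107, adjusted p = 0.0193), a 1.3-fold mean level. In E1-KO and E2-KO its log2 fold change was 0.22 (95% interval -0.0195 to 0.466, adjusted p = 0.13) and 0.19 (-0.0498 to 0.436, adjusted p = 0.189). The E3-KO call was lost without E3-KO replicate 1 (0.26, 0.0756) and without WT replicate 1 (0.37, 0.104) or 2 (0.39, 0.0938), while the E1-KO value passed under median-ratio scaling (0.29, adjusted p = 0.043).

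Nipbl (ENSMUSG00000022141, chromosome 15) was at 24.0 and 24.05 FPKM in WT, at 23.41 and 22.29 in E1-KO, at 20.76 and 17.41 in E2-KO and at 20.47 and 24.35 in E3-KO. E1-KO and E2-KO lay below WT, and E3-KO overlapped it. The log2 fold changes were -0.07 (95% interval -0.346 to 0.207), -0.32 (-0.599 to -0.0462, adjusted p = 0.0672) and -0.10 (-0.378 to 0.175). The E2-KO value passed with a scaling that ignored the 50 highest genes (-0.37, adjusted p = 0.0357), without E2-KO replicate 1 (-0.44, adjusted p = 0.044) and without E3-KO replicate 1 (0.0457) or 2 (0.0461). The ratio of Wapl to Nipbl was 8.21 and 8.34 in WT and between 9.79 and 13.7 in the 6 knockout samples.

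Med1 is the Mediator subunit that binds nuclear receptors and marks strong enhancers. Med1 (ENSMUSG00000018160, chromosome 11) was at 44.94 and 45.9 FPKM in WT, at 39.35 and 36.55 in E1-KO, at 51.67 and 50.05 in E2-KO and at 41.36 and 34.82 in E3-KO. E2-KO lay above WT, and E1-KO and E3-KO lay below it, with no overlap of either with WT. Against WT the log2 fold change was -0.25 (95% interval -0.494 to -0.0135, adjusted p = 0.0883), 0.16 (-0.0807 to 0.4, adjusted p = 0.268) and -0.25 (-0.493 to -0.0125, adjusted p = 0.0814). Med1 was lower in E3-KO than in E2-KO by a log2 difference of -0.41 (SE 0.106, adjusted p = 0.032), where 10.1% of all genes were called lower, and higher in E2-KO than in E1-KO by the same size (0.41, adjusted p = 0.0997), which was not called. The E3-KO against E2-KO call was lost under quantile normalization (-0.32, 0.0671), under median-ratio scaling (-0.32, 0.057) and in 7 of the 8 fits that each left out 1 sample, all but that without E3-KO replicate 1, with adjusted p from 0.0585 without E1-KO replicate 1 to 0.12 without E3-KO replicate 2. The E3-KO value against WT passed without E3-KO replicate 1 (-0.37, adjusted p = 0.0243), and the E1-KO value without either E3-KO sample (adjusted p = 0.0452).

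The order of the lines was then set beside that of Sox2. The group means of Sox2 ran, from low to high, E1-KO, E3-KO, E2-KO and WT. Smc3 and Stag1 had exactly the reverse order, that is 2 of 9 genes, where 3.13% of 11273 genes had it. The same order as Sox2 was held by 0 of 9 genes and by 5.22% of all genes. Neighbouring groups in these orders were not separated throughout, since E2-KO and WT overlapped for Smc3, and E1-KO and E3-KO overlapped for Stag1. For Sox2 itself E2-KO replicate 2 (97.51 FPKM) lay below E3-KO replicate 1 (97.74 FPKM). The log2 difference of Sox2 in E3-KO against E2-KO was -0.157 (limma adjusted p = 0.332), which was not called. The reference order is therefore not settled for E2-KO and E3-KO, and the counts of matching orders rest on it. Between knockouts, 0 of 9 genes were called in E2-KO against E1-KO, where 0.834% of all genes were called and where Sox2 differed by 0.82 (SE 0.104, adjusted p = 0.0161, but 0.143 and 0.107 without E1-KO replicate 1 or 2 and 0.0766 without E2-KO replicate 1). At an unadjusted p under 0.05 the limma fit had 3 of the 9 genes in that comparison, Smc3 and Stag1 lower and Med1 higher in E2-KO.

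The genes whose pattern over the 8 samples was most like that of a member were found by Pearson's r of log2(FPKM + 1). For Smc1a they were Ccdc77 (r = 0.98), Cdc73 (0.972) and Ap1g2 (0.972), and for Smc3 Btaf1 (0.996), Paf1 (0.986) and Ppp1r12a (0.98). For Stag1 they were Zpr1 (0.988), Srpr (0.98) and Tchp (0.975), and for Ctcf Hnrnpa2b1 (0.994), Hirip3 (0.993) and Nudc (0.992). Cdc73 and Paf1 encode subunits of the PAF1 complex of RNA polymerase II elongation. The values are the highest among 11273 genes over 8 samples of 4 groups and serve as a description.

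Among 13 genes that load, release, acetylate, protect or cleave cohesin, 3 rose and 4 fell in E1-KO, 2 rose and 4 fell in E2-KO, and 2 rose and 8 fell in E3-KO. Their median log2 fold change was -0.13, -0.22 and -0.35, beside -0.06, -0.08 and -0.15 over all tested genes. Of all tested genes 15.0%, 14.2% and 13.9% were called higher and 23.0%, 22.0% and 30.8% lower in these lines. The counts of this list and of those below stand beside these shares and are no result about a list as a whole. Pttg1, the securin that holds separase inactive, rose in all 3 lines by 1.16, 0.99 and 0.88 (SE 0.158, adjusted p = 0.000919, 0.00197 and 0.00243). Its level was 113.9 and 119.5 FPKM in WT and between 195.1 and 279.4 in the knockout samples, with no overlap. Esco2, which acetylates Smc3 in S phase, fell by 0.50, 0.65 and 0.87, and Aurkb, the mitotic kinase that helps remove cohesin from chromosome arms, fell by 0.36, 0.36 and 0.71. Mau2, the partner of Nipbl in the loader, fell by 0.47, 0.42 and 0.66 (SE 0.109, adjusted p = 0.00954, 0.0178 and 0.0017), from 16.71 and 17.51 FPKM in WT to between 9.898 and 13.04 in the knockouts. The mitotic kinase Plk1 rose by 0.43, 0.40 and 0.33. Median-ratio scaling gave 3 higher and 3 lower for E1-KO, 2 higher and 3 lower for E2-KO and 3 higher and 4 lower for E3-KO, and under quantile normalization Mau2 in E2-KO missed the threshold (adjusted p = 0.0506). Leaving out 1 sample ended no call of Pttg1, but it ended those of Mau2 (without WT replicate 2, adjusted p = 0.0763 in E1-KO and 0.116 in E2-KO, also without E1-KO replicate 1, E2-KO replicate 1 or WT replicate 1), of Esco2 in E1-KO (0.0622 to 0.102, each of the 4 samples), of Aurkb in E1-KO (0.0617 to 0.109, each of the 4) and E2-KO (0.0644 to 0.117, E2-KO replicate 1 or either WT sample), and of Plk1 in E2-KO and E3-KO (0.0544 to 0.0907, either WT sample).

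Of 5 germline or tissue paralogs tested, 1 rose and 3 fell in E1-KO, 3 fell in E2-KO, and 1 rose and 2 fell in E3-KO. Rec8, the meiotic counterpart of Rad21, fell by 1.16, 1.07 and 0.84 in E1-KO, E2-KO and E3-KO (SE 0.156, adjusted p = 0.000865, 0.00133 and 0.00285). It was at 7.993 and 8.631 FPKM in WT and between 2.621 and 4.334 in the knockouts. Stag3, the meiotic Stag protein, fell by 0.43, 0.54 and 1.02 (SE 0.145, adjusted p = 0.0422, 0.0195 and 0.000803), from 31.37 and 42.13 FPKM in WT to 17.44 and 17.33 in E3-KO. The E1-KO call of Stag3 was lost under median-ratio scaling (-0.36, adjusted p = 0.0651), without E1-KO replicate 1 (0.0715) or 2 (-0.32, 0.23), either E3-KO sample (0.051) or WT replicate 2 (-0.23, 0.313), and the E2-KO call without E2-KO replicate 2 (0.0738) or WT replicate 2 (-0.33, 0.159). The calls of Rec8 were kept in all 8 fits that left out 1 sample. Stag3 stood above Stag2 in both WT samples and Smc1b, the meiotic counterpart of Smc1a, was between 9.489 and 19.11 FPKM and called in no line. Ctcfl, the testis paralog of Ctcf, stayed between 1.504 and 3.008 FPKM and rose in E1-KO by 0.53 (adjusted p = 0.0371, and 0.119 to 0.15 without any 1 of the 4 samples), and Rad21l was listed at 0 in 7 of 8 samples.

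Med12l, the paralog of Med12, moved in opposite directions between lines. It was at 2.437 and 2.43 FPKM in WT, at 0.6099 and 0.4216 in E1-KO, at 1.155 and 0.9525 in E2-KO and at 5.748 and 3.91 in E3-KO. No group overlapped another. It fell by 1.18 (SE 0.181, adjusted p = 0.00155) in E1-KO and by 0.74 (adjusted p = 0.0128) in E2-KO and rose by 0.74 (adjusted p = 0.00972) in E3-KO, and E3-KO exceeded E1-KO by 1.93 (adjusted p = 0.000311), a difference kept in all 8 fits that left out 1 sample. The E2-KO call was lost without E2-KO replicate 2 (0.0535) or WT replicate 1 (0.0652) or 2 (0.0702), and the E3-KO call without E3-KO replicate 1 (0.52, 0.0563) or WT replicate 1 (0.0502) or 2 (0.0551). Med12l lies on chromosome 3, as does Sox2, and the part of this in its values was not tested.

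In the kinase module of Mediator, which docks on the core and carries Cdk8 or Cdk19, Ccnc rose and Med13l and Cdk19 fell in all 3 lines. Of 5 genes 1 rose and 2 fell in E1-KO, 1 rose and 3 fell in E2-KO, and 1 rose and 2 fell in E3-KO, where under median-ratio scaling 1 rose and 0 fell. Ccnc, the cyclin of both kinases, rose by 0.69, 0.34 and 0.43 (SE 0.113, adjusted p = 0.002, 0.0408 and 0.0138). Its E2-KO call was lost without WT replicate 2 (0.22, 0.288), either E2-KO sample (0.0878 and 0.109) or either E1-KO sample (0.0697 and 0.0696), and its E3-KO call without E3-KO replicate 2 (0.0624) or WT replicate 2 (0.13). Med13l, one of the alternative links to the core, fell by 0.68, 0.59 and 0.41 (SE 0.104, adjusted p = 0.00158, 0.00312 and 0.0123), a fall in E3-KO that did not pass under quantile normalization (adjusted p = 0.0842), median-ratio scaling (0.0971) or without WT replicate 2 (0.0975). Cdk19 fell by 0.48, 0.46 and 0.37 (SE 0.121, adjusted p = 0.0139, 0.0175 and 0.035), and under quantile normalization none of these passed (adjusted p = 0.0617, 0.0822 and 0.378). Without 1 sample its calls were lost in E1-KO for each of the 4 samples (0.0573 to 0.0965), in E2-KO for E2-KO replicate 1 or either WT sample (0.0661 to 0.115) and in E3-KO for each E1-KO, E3-KO and WT sample (0.0506 to 0.179). Cdk8 was between 18.32 and 21.62 FPKM in all samples and was not called, and the ratio of Cdk8 to Cdk19 was 2.44 and 2.61 in WT and between 3.59 and 4.36 in the knockouts.

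Most other Mediator core subunits were not called, and the same held for all tested genes, of which 38.0%, 36.1% and 44.7% were called. Of 25, 2 rose and 3 fell in E1-KO, 4 rose and 4 fell in E2-KO, and 1 rose and 2 fell in E3-KO. Their medians were 0.03, -0.02 and -0.11, beside -0.06, -0.08 and -0.15 over all tested genes. Under median-ratio scaling 4 rose and 3 fell, 6 rose and 4 fell, and 4 rose and 1 fell, and under quantile normalization 5 and 2, 6 and 1, and 5 and 1. Med29 rose in all 3 lines by 0.85, 0.93 and 0.82 (SE 0.124, adjusted p = 0.00123, 0.000925 and 0.00107), from 10.97 and 9.56 FPKM in WT to between 17.62 and 21.9. Med25, which contacts activators, fell by 0.54, 0.50 and 0.76 (SE 0.101, adjusted p = 0.00367, 0.00589 and 0.000603), and Med22 fell by 0.90 in E1-KO (adjusted p = 0.00175) and 0.50 in E2-KO (adjusted p = 0.0231). Leaving out 1 sample ended no call of Med29, but it ended that of Med25 in E2-KO (WT replicate 2, 0.0661) and that of Med22 in E2-KO (E2-KO replicate 1, -0.33 and 0.128, and WT replicate 1 or 2, 0.0753 and 0.135), which also missed the threshold under quantile normalization (0.0685).

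Among 15 other looping and enhancer-coupling factors, 2 rose and 1 fell in E1-KO and 3 rose and none fell in E3-KO. In E2-KO the limma test called 0 of them, and 4 had an unadjusted p under 0.05, while median-ratio scaling gave 2 higher and 0 lower in that line. Brd2, a BET protein that reads acetylated histones, rose by 0.61 in E1-KO and 0.46 in E3-KO (adjusted p = 0.0169 and 0.0452), and Ldb1, a bridging cofactor, fell by 0.52 in E1-KO (adjusted p = 0.00993). The Brd2 calls were lost without WT replicate 1 (0.0976 in E1-KO and 0.187 in E3-KO) or 2 (0.0659 and 0.113), without E1-KO replicate 2 in E1-KO (0.118) and, in E3-KO, without E3-KO replicate 2 (0.21, 0.258) or either E1-KO sample (0.0573 and 0.0571), and that of Ldb1 without E1-KO replicate 2 (0.0673) or WT replicate 2 (-0.36, 0.0958).

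Condensin and SMC5/6, relatives of cohesin that compact and repair chromosomes, had 0 of 12 genes higher in any line and 1, 3 and 3 lower in E1-KO, E2-KO and E3-KO, where median-ratio scaling gave 2, 0 and 0 higher and 1, 2 and 3 lower. At an unadjusted p under 0.05 the limma fit had 2, 0 and 0 of them higher. The fall of 1.10 of Ncapd2 in E3-KO (SE 0.0931, adjusted p = 8.79e-05) concerned a gene of chromosome 6, where the median log2 fold change of 536 genes in E3-KO was -0.62 against -0.13 elsewhere, and the part of this in the value was not tested. None of the 9 looping genes lies on chromosome 6. Of 12 proliferation genes, 3 rose and 1 fell in E1-KO, 3 rose and 2 fell in E2-KO, and 1 rose and 4 fell in E3-KO, against 3 higher and 1 lower in E3-KO under median-ratio scaling. Bub1, a spindle checkpoint kinase, fell by 0.79, 1.03 and 1.34 (SE 0.122), and Mcm5, a subunit of the replicative helicase, rose by 0.78, 0.71 and 0.49 (SE 0.1). Their part in the changes of the cohesin genes was not tested.

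**Figure D4:**
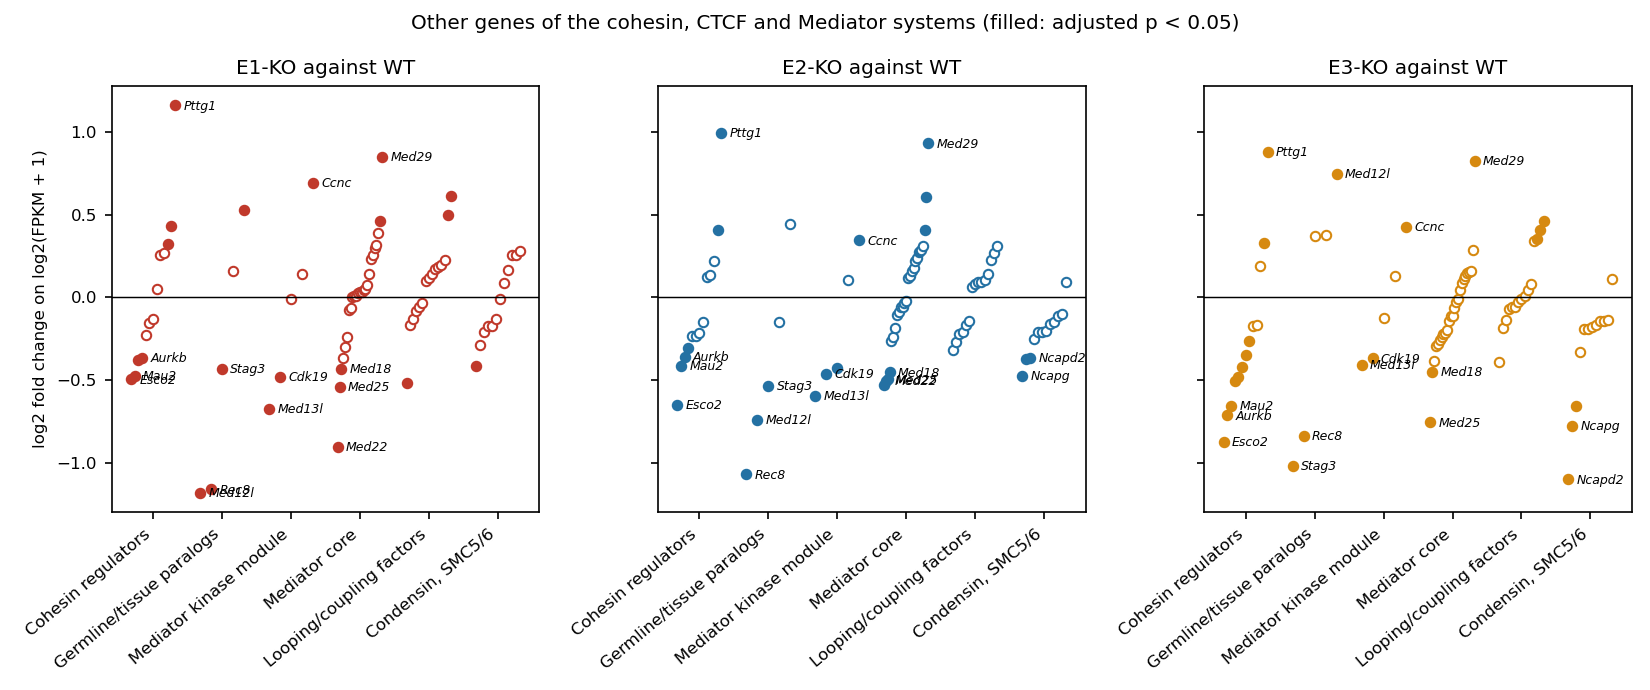
Log2 fold change against WT (vertical axis, on log2(FPKM + 1)) of the other genes of the cohesin, CTCF and Mediator systems, by list (horizontal axis) and line. Each point is a gene, filled where the adjusted p is under 0.05. Pttg1 and Med29 lie above 0.8 in all 3 panels, and Med12l lies below 0 in E1-KO and E2-KO and above 0 in E3-KO.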

How the data were processed

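RNA of 8 samples, 2 each of WT, E1-KO, E2-KO and E3-KO, had been extracted with Trizol and made into total RNA libraries, per the labels' protocols. The submitters' processing notes name Trimmomatic 0.36, TopHat2 2.0.12, Cufflinks 2.2.1 and the build mm9, with no role. The deposited values carry no stated unit and were taken as FPKM from their range and sums, so depth is unknown and no count model was used. Identifiers were matched to symbols with GENCODE M21 (GRCm38), a build other than mm9, so gene coordinates are not given. Of 660 identifiers with several rows, 579 were kept by their place in the file order and 81 were left out.

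All 8 samples were fitted with limma 3.58.1 (R 4.3.3), with trend, on log2(FPKM + 1) over the 11274 genes whose mean level reached 1 FPKM. The model held the group alone and left 4 residual degrees of freedom. P-values were two-sided, adjusted with Benjamini-Hochberg over all genes and called under 0.05. They measure the spread between these samples, which may be technical. The fit was tested on simulated data for E1-KO against WT: of 200 changed among 11274 genes, 0% were called at a log2 change of 0.25 and of 0.5, 79.5% at 1 and 97.5% at 2. With so few genes changed, the adjustment there is stricter than in the deposited data. The genes and lists were chosen with earlier results of these data known. From each list were named up to 4 called genes a comparison with the largest change, and paralogs by level. In all, 20 alternatives were run. Files were handled with Python 3.11.15 and pandas 2.3.3.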

Additional observations from a re-analysis of the deposited data

Results flagged for a closer look

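Differences between 2 knockouts, each tested in the same fit as a contrast of their changes against WT (limma, Benjamini-Hochberg), passed for 2 of the 9 looping genes. They were Smc1a in E3-KO against E1-KO (-0.60) and Med1 in E3-KO against E2-KO (-0.41), both on the log2 scale. That is 1 of 9 in each comparison, where 16.4% and 10.1% of all genes were called lower. Both calls were lost under quantile normalization (adjusted p = 0.0513 and 0.0671) and median-ratio scaling (0.0758 and 0.057), and they were kept in 3 and 1 of the 8 fits that each left out 1 sample. Smc1a was also lost with all genes above 0 (0.0742) and the replicate block (0.0504), and Med1 with a scaling that ignored the 50 highest genes (0.0773), without trend (0.0511) and with only the samples of E2-KO and E3-KO (0.134). Sox2 was higher in E2-KO (0.82) and in E3-KO (0.66) than in E1-KO, and the first of these was lost without E1-KO replicate 1 (0.143) or 2 (0.107) or E2-KO replicate 1 (0.0766).

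Among cohesin regulators and paralogs, Med12l was higher in E3-KO than in E1-KO (1.93) and E2-KO (1.49), and both calls were kept in all 8 fits that left out 1 sample. E3-KO was lower than E1-KO for Pds5b (-0.47), a call lost without E1-KO replicate 1 (0.0516) or 2 (0.0678), and for Stag3 (-0.59), lost without E1-KO replicate 1 (0.13) or either E3-KO sample (0.0591 and 0.0554). Calls that depended on the scaling were those of Sgo1 (-0.43) and Aurkb (-0.35) in E3-KO against E1-KO and of Aurkb in E3-KO against E2-KO (-0.35). Under quantile normalization, median-ratio scaling and a scaling that ignored the 50 highest genes the adjusted p was 0.0839, 0.0842 and 0.0613 for Sgo1, 0.0837, 0.077 and 0.0786 for Aurkb against E1-KO, and 0.0918, 0.0816 and 0.143 against E2-KO. Aurkb against E2-KO was also lost with GC content and length correction (0.0605) and the replicate block (0.0514), and in all but the fit without E3-KO replicate 1 (0.053 to 0.103). Aurkb against E1-KO was lost without either E1-KO or WT sample or E3-KO replicate 2 (0.052 to 0.127), and Sgo1 without replicate 1 of E1-KO (0.202) or E3-KO (0.126) or either WT sample (0.0544 and 0.0545).

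Among Mediator and coupling factors, E3-KO exceeded E1-KO for Med22 (0.52) and Ldb1 (0.49) and was lower for Zfp281 (-0.45). Med22 was lost without either E1-KO or WT sample or E3-KO replicate 1 (0.0508 to 0.134) and with all genes above 0 (0.0534), Ldb1 without either E1-KO sample or E3-KO replicate 2 (0.0694 to 0.108), and Zfp281 without either E1-KO sample or E3-KO replicate 1 (0.0557 to 0.112). E3-KO was lower than E2-KO for Med21 (-0.67), a gene of chromosome 6, lost without E2-KO replicate 1 (0.0797) or E3-KO replicate 2 (0.0871). It was also lower for Maz (-0.36), a call lost in each of the 8 fits that left out 1 sample (0.051 to 0.106), under quantile normalization (0.0871), median-ratio scaling (0.0736) and a scaling that ignored the 50 highest genes (0.105), with GC content and length correction (-0.22, 0.155) and with the replicate block (0.0533).

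Among condensin and SMC5/6 genes, E3-KO was lower than E1-KO for Ncapd2 (-0.97) and Ncapg (-0.57), and lower than E2-KO for Ncapd2 (-0.74), all kept in all 8 fits that left out 1 sample. It was lower than E1-KO for Smc4 (-0.43) and Smc5 (-0.45), which were lost under quantile normalization (0.0643 and 0.0504) and median-ratio scaling (0.0846 and 0.073). Smc4 was also lost with all genes above 0 (0.0555) and without any 1 of the E1-KO, E3-KO and WT samples (0.0574 to 0.214), and Smc5 without either E1-KO sample or E3-KO replicate 1 (0.111 to 0.118). The proliferation genes Bub1 (-0.55), Mcm2 (-0.69) and Pcna (-0.49) were lower in E3-KO than in E1-KO, and Mcm2 (-0.74) and Pcna (-0.59) were lower than in E2-KO. Leaving out 1 sample ended the call of Bub1 (E1-KO replicate 1, 0.103) and of Pcna against E1-KO (E1-KO replicate 1 or 2, 0.0549 and 0.106), and no call of Mcm2. Mki67 was lower in E3-KO than in E1-KO (-0.56), a call lost under quantile normalization (0.0614), median-ratio scaling (0.0861), scaling without the 50 highest genes (0.0554), all genes above 0 (0.0791) and the replicate block (0.0524), and without either E1-KO or WT sample or E3-KO replicate 1 (0.0618 to 0.193, with -0.37 without the last). Ncapd2 and Mcm2 lie on chromosome 6, where E3-KO had a median log2 fold change against WT of -0.62.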

How the results depend on the processing

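Each of the 20 alternatives kept the sign of every called value of the 9 genes and of Sox2. At an adjusted p under 0.01, all genes called numbered 2248, 2090 and 3058 in E1-KO, E2-KO and E3-KO against WT, 0 in E2-KO against E1-KO, 1412 in E3-KO against E1-KO and 575 in E3-KO against E2-KO, with 0 of the 9 higher in E2-KO and in E3-KO against WT and 0 lower in the other 2 comparisons that had a call. With only the samples of the 2 groups, 1 of the 9 was lower in E1-KO, 0 higher in E2-KO against WT and 0 lower in E3-KO against E2-KO, and all genes called were 1 in E2-KO against E1-KO and 671 in E3-KO against E2-KO. Quantile normalization and median-ratio scaling each gave 4 of the 9 higher in E3-KO against WT (20.2% and 20.9% of all genes) and 0 lower in E3-KO against E1-KO and against E2-KO, and quantile normalization 1 lower in E2-KO against WT. Scaling without the 50 highest genes gave 1 lower in E2-KO against WT and 0 lower in E3-KO against E2-KO. Without trend, 0 were higher in E2-KO against WT and 0 lower in E3-KO against E2-KO. GC content and length correction gave 2 higher in E2-KO against WT. With all genes above 0, 1 gene was called in E2-KO against E1-KO and 0 of the 9 were lower in E3-KO against E1-KO, and with a mean of at least 5 FPKM 58 genes were called in E2-KO against E1-KO, where the usual fit called 94. The cause of these shifts was not tested.

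Same-numbered samples did not deviate together (mean correlation 0.00505), so the numbers were not taken to pair samples. With the replicate number as a block, 31 genes were called in E2-KO against E1-KO, and 0 of the 9 were lower in E3-KO against E1-KO. Leaving out each sample in turn gave 2041 to 4672, 1871 to 4453 and 2830 to 5341 genes called in E1-KO, E2-KO and E3-KO against WT, 2 to 261 in E2-KO against E1-KO, 1309 to 3275 in E3-KO against E1-KO and 975 to 1550 in E3-KO against E2-KO. Of the 9 genes it gave 0 to 3, 0 to 1 and 0 to 2 higher and 0 to 1 lower in each line against WT, and 0 to 1 lower in E3-KO against E1-KO and against E2-KO. A fit that leaves 1 sample in a group takes its spread from the other groups.

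Median-ratio scaling moved the median log2 fold change of all genes in E3-KO from -0.15 to 0.00304. It moved the share of higher among called genes from 31.1% to 49.9% in E3-KO, from 39.6% to 48.7% in E1-KO, from 39.2% to 50.5% in E2-KO, from 36.4% to 52.8% in E3-KO against E1-KO and from 35.2% to 51.8% in E3-KO against E2-KO. With 2 samples a group, the SE of a log2 fold change ranged from 0.0951 for Rad21 to 0.334 for Stag2 among the 9 genes, and depth is unknown.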
